A study of Mus musculus with 4 samples.

Results

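Chemokine receptors are G-protein-coupled receptors with which leukocytes read gradients of small secreted proteins, the chemokines, and each cell type carries its own combination of them. CCR2 and its ligands bring monocytes out of the marrow and into inflamed tissue, CX3CR1 is carried by resident macrophages and patrolling monocytes, CXCR4 holds cells near sources of CXCL12, and CXCR5 guides B cells to follicles. CXCL16 is unusual in being made as a membrane-bound chemokine that is later shed, and its receptor is CXCR6. The RNA of 8 genes was followed here, chosen by symbol from the 32285 genes in the count files: the receptors Ccr1, Ccr2, Ccr6, Cx3cr1, Cxcr4, Cxcr5 and Cxcr6, and the ligand Cxcl16. Their choice used no measured value, but it was made with earlier results of these data known.

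The cells were live CD45-positive leukocytes sorted from digested mouse hearts without atria (strain C57BL/6) and sequenced with 10x 3′ v3 chemistry. Surgery was done on postnatal day 2, as a sham operation or as a myocardial infarction (MI), and hearts were taken 7 days later. The comparison was between mice with a heterozygous deletion of PD-1 (PD1 Het), a checkpoint receptor of T cells encoded by Pdcd1, and mice with a homozygous deletion (PD1 KO). The 4 libraries are called Het_sham, KO_sham, Het_MI and KO_MI below, and values for the 4 libraries are given in that order. The Het controls also carried 1 deleted allele, so no wild-type library was compared. Each group had 1 library, and how many hearts went into a library is not given in the sources used here. There is therefore no estimate of the spread between animals and no test, and every difference below is between libraries.

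The libraries held 52701847 to 72002420 UMIs in 6157 to 8379 barcodes. After the filters on UMIs, genes, mitochondrial share and doublets, 4295, 5215, 4032 and 5303 cells were kept, with median depths of 5690 to 7588 UMIs. Ptprc, which encodes CD45, stood at 408 to 491 CPM (defined below), although 215 endothelial cells and 269 fibroblasts were among the kept cells. Pdcd1 was read at 16.5, 19.0, 46.4 and 62.1 CPM in T cells, so its RNA was not lower in the libraries labelled KO. Which part of Pdcd1 was deleted is not given in the sources used here, and 3′ tags from outside it would check nothing, so the genotype labels stand unchecked. In KO_MI, 4657 of the 5303 cells had Xist RNA and no Y-linked RNA, against 895, 1351 and 614 cells in the other libraries. Sex and group therefore cannot be told apart in any comparison with KO_MI. Values for cells with Xist and no Y-linked UMI are given below. Such cells were a minority in the other libraries, and the sex of the hearts is not given in the sources used here. These values therefore do not settle the part of sex.

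Levels are in CPM, a gene's UMIs scaled to 1000000 UMIs summed over all cells of that type in a library. Brackets after a log2 ratio give a 95% interval, exact and binomial on the UMIs of both libraries, and shares and levels carry counting error only. A ratio was counted where both libraries had at least 100 cells of the type, the gene had at least 30 UMIs over both, and the type's mean level was at least 5% of the gene's highest, and it was called higher or lower at 1.5-fold or more. Fewer transcripts per cell and fewer transcript-bearing cells cannot be told apart in such summed counts.

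Of the 8 genes, 5 lie on mouse chromosome 9 of GRCm38, and 3 of those form a cluster of 307 kb. Cxcr6 (chr9:123806475-123811760, plus strand) lies inside Fyco1 on the other strand, Ccr1 (chr9:123962124-123968692) is on the minus strand, and Ccr2 (chr9:124101950-124113557) is on the plus strand. Cx3cr1 (chr9:119901616-120069879) and Cxcr5 (chr9:44511787-44561877) are farther off, both on the minus strand and both overlapping other genes. Cxcr4 lies at chr1:128588199-128592293 (minus), Cxcl16 at chr11:70453983-70459984 (minus, overlapping Zmynd15 on the other strand) and Ccr6 at chr17:8236043-8257141 (plus). RefSeq promoter windows, from 250 bases before to 50 bases after a transcript start (GRCm38.p6), matched 6 of the 8 genes; Cxcr5 and Cxcl16 had no entry.

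The windows of Cxcr4, Cx3cr1 and Ccr2 are shown because the results turn on these genes: Cxcr4 was read in most leukocyte types, and Cx3cr1 and Ccr2 were unevenly read over the macrophage clusters. They were searched on both strands for GGGCGG (the GC box), the palindromic NRF-1 site, TATAAAA (the TATA box), GAGGAA (a PU.1 core), CCAAT (the CCAAT box) and TGANTCA (the AP-1 site), and matches are in capitals. The windows are Cxcr4 chr1:128592250-128592549 (minus), Cx3cr1 chr9:120068247-120068546 (minus) and Ccr2 chr9:124101933-124102232 (plus), each written 5′ to 3′ on the gene's strand.
Cxcr4: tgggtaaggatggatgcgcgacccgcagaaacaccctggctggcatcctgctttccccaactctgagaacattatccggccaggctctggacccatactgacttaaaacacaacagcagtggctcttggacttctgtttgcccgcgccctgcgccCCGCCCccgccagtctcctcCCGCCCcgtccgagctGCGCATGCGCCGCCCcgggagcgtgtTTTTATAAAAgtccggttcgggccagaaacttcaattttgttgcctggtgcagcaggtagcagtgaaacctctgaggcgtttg
Cx3cr1: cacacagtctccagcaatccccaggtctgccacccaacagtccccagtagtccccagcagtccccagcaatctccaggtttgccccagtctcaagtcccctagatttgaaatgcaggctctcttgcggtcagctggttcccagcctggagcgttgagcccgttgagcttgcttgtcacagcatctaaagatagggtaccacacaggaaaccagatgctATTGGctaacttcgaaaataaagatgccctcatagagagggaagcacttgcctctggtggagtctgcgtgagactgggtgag
Ccr2: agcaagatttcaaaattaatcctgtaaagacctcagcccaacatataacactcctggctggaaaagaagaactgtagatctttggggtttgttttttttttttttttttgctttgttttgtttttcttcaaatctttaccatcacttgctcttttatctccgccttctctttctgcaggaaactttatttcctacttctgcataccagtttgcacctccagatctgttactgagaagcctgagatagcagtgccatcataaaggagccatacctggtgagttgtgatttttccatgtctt
The Cxcr4 window held 3 GC boxes, 1 NRF-1 site that overlaps the third GC box, and 2 TATA boxes on opposite strands that overlap each other. Its GC content was 59.3% with 20 CG pairs, where the median of all 32544 promoter windows was 7 pairs. A GC box was found in 35.9% of all windows, an NRF-1 site in 0.974% and a TATA box in 5.44%. The Cx3cr1 window had 1 CCAAT box (in 37.4% of all windows), 54.3% GC and 5 CG pairs. Ccr2 had no match, 38.0% GC and 1 CG pair, which says only that these letters are not in this window. Among the others, Ccr1 and the first of 2 Ccr6 starts had 1 PU.1 core each (28.1% of all windows), no window had an AP-1 site (7.79%), and Cxcr6 had no match. A match is a description of letters and not a site of binding.

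**Figure D1:**
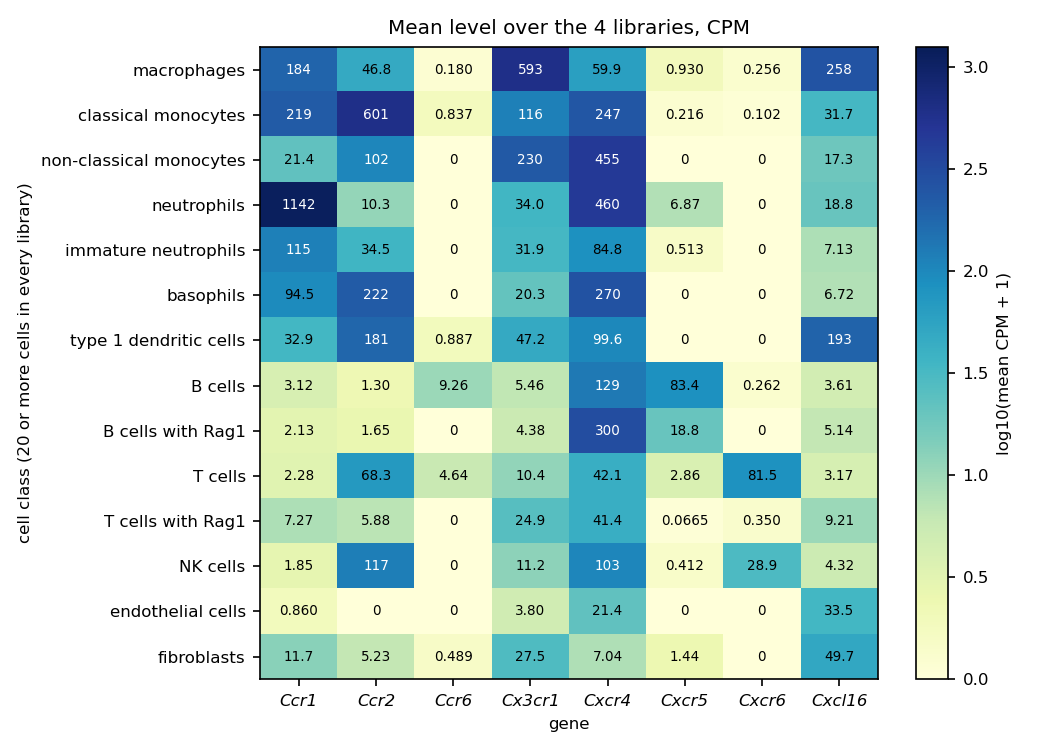
Mean level of each gene (columns) over the 4 libraries, in CPM, in each cell type with at least 20 cells in every library (rows); colour is log10(CPM + 1) and the number in a cell is the mean. Ccr1 was highest in neutrophils (1142 CPM), Ccr2 in classical monocytes (601), Cx3cr1 in macrophages (593), and Ccr6 and Cxcr5 in B cells (9.26 and 83.4).

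Cell types were named from marker genes, with the 8 genes themselves left out of the clustering. The type called T cells does not include T cells with Rag1, a separate type of 374, 42, 85 and 198 cells. Ccr1, a receptor for CCL3 and CCL5 among others, had its highest CPM in neutrophils. In neutrophils it stood at 1353, 1146, 1060 and 1009 CPM, in classical monocytes at 202, 191, 246 and 236, and in macrophages at 189, 178, 185 and 184. These 3 ranges did not overlap. The gap was narrower by cells: 80.8% of 880 neutrophils, 58.7% of 1146 classical monocytes and 63.9% of 7759 macrophages had a Ccr1 UMI. Macrophages held 15500 of its UMIs and neutrophils 2295. The main neutrophil cluster had a median of 2095 UMIs a cell and the macrophage clusters 6606 or more, so CPM is not an amount per cell. Immature neutrophils, marked by Ngp and Camp, had a mean of 115 CPM, an order of magnitude under the mature cells, and non-classical monocytes had 21.4 CPM. The ratios between libraries were small: in neutrophils -0.35 [-0.52, -0.19] for Het_MI over Het_sham, -0.18 for KO_MI over KO_sham and -0.07 [-0.26, 0.12] for KO_MI over Het_MI. In classical monocytes Ccr1 was higher after MI by 0.28 in Het and 0.30 in KO, under the 1.5-fold line. The neutrophil level itself depended on how neutrophils were delimited: it was 454 CPM with doublets kept, 629 with per-cell marker gates and 663 with coarser clusters, in place of 1142.

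Ccr2, the receptor for CCL2, CCL7 and CCL12 that carries monocytes into tissue, was highest in classical monocytes. It stood there at 705, 539, 603 and 556 CPM. Het_sham was the highest library, and KO_sham over Het_sham was -0.39 [-0.50, -0.27], while KO_MI over Het_MI was -0.12. Type 2 dendritic cells followed with a mean of 364 CPM, from as few as 11 cells in a library. Basophils (264, 206, 277 and 139 CPM) and type 1 dendritic cells (204, 182, 199 and 138) overlapped each other, and NK cells (122, 121, 110 and 115) lay just under them. In non-classical monocytes Ccr2 was 104, 66.2, 130 and 109 CPM, low in KO_sham, which gave -0.65 [-0.93, -0.39] for KO_sham over Het_sham and 0.72 [0.42, 1.03] for KO_MI over KO_sham. Both calls were lost with doublets kept, with marker gates and at other clustering resolutions.

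Macrophages had little Ccr2 after sham surgery and more after MI. The levels were 31.1, 30.5, 50.6 and 75.1 CPM, both sham libraries alike and KO_MI the highest. The ratio was 0.70 [0.54, 0.87] for Het_MI over Het_sham and 1.30 [1.17, 1.42] for KO_MI over KO_sham, and KO_MI over Het_MI was 0.57 [0.46, 0.68], at 1.49-fold just under the line. The call in KO was kept in 11 of 11 alternatives, and that in Het in 9 of 11, being lost with doublets kept and with marker gates. Restricted to cells with Xist and no Y-linked UMI, the 3 ratios were 0.80, 1.62 and 0.81.

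This Ccr2 was unevenly spread over the 14 macrophage clusters. Cluster 9, led by Pf4, F13a1, Folr2 and Lyve1, genes of resident macrophages, had 14.9 CPM over all libraries, and cluster 0, led by Spp1 and Gpnmb, had 74.1. Cluster D0, led by Ccl12 and the interferon-induced Rsad2, had 143 CPM. Of the 4 MHC class II sub-clusters (H2-Aa or H2-Ab1 among their leading genes), D12 had 149, D6 had 290, D5, which is led by Cxcl9, had 364 and D11 had 379. These 4 sub-clusters held 7, 23, 61 and 232 of the cells assigned to macrophages, 0.571%, 1.09%, 3.2% and 9.25% of them.

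Cells were assigned by the whole marker list, and not every cluster is led by macrophage markers. D5 has 0 of them among its 10 leading genes and 1 marker of classical monocytes, Ms4a4c. Cluster 34, led by Marco and Arg1, also has 0. D12 has C1qa and C1qb beside Naaa, a marker of type 1 dendritic cells, and the dividing cluster 12 has 3 macrophage markers beside 4 of division. Without D5 and cluster 34, an alternative chosen after seeing the data, Ccr2 was 30.3, 30.5, 49.3 and 67.1 CPM. Het_MI over Het_sham was then 0.70 [0.54, 0.87] and KO_MI over KO_sham 1.14 [1.01, 1.26], both still calls, and KO_MI over Het_MI was 0.45 [0.33, 0.56].

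Without these 4 sub-clusters, an alternative chosen after seeing the data, Ccr2 in the other macrophages was 39.0 CPM in Het_MI and 48.7 in KO_MI. KO_MI over KO_sham became 0.77 [0.63, 0.92], Het_MI over Het_sham 0.46 [0.28, 0.63], no longer a call, and KO_MI over Het_MI 0.32 [0.19, 0.45]. Inside the sub-clusters KO_MI was not the highest library, with 295 CPM against 350 in Het_MI and 168 in KO_sham. Within single clusters the ratios after MI went both ways. Het_MI over Het_sham was 0.65 [0.15, 1.19] in cluster 3, 0.66 [0.24, 1.08] in cluster 13, 0.45 [-0.19, 1.10] in cluster 9 and -0.45 [-0.84, -0.05] in the dividing cluster 12. KO_MI over KO_sham was 0.83 [0.49, 1.18] in cluster 12, 0.89 [0.14, 1.64] in cluster 1 and 0.39 [-0.01, 0.79] in cluster 13. It was 0.11 in cluster 3, -0.01 in cluster 9 and -0.32 in cluster 16, all with intervals over 0. In cluster 0 Ccr2 was 86.2 CPM in KO_sham and 86.0 in KO_MI, and 57.0 in Het_MI.

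Cx3cr1, the receptor for the membrane-anchored chemokine fractalkine, was highest in macrophages. Over the whole type it was 660, 572, 619 and 520 CPM, above non-classical monocytes (250, 235, 215 and 220) and classical monocytes (104, 141, 122 and 97.3), with no overlap among the 3 types. Mast cells were between these monocytes at a mean of 159 CPM, from as few as 8 cells in a library. By cluster it was 741 CPM in cluster 13, 652 in cluster 3 and 623 in cluster 9, against 365 in the Spp1 cluster 0, 306 in D11 and 174 in D5. D0, D6 and D12, all with more Ccr2 than cluster 0, had 622, 486 and 414 CPM of Cx3cr1, so the order was not simply that of Ccr2 reversed. The 65 cells of cluster 34 had 123 CPM of Cx3cr1, 45.0 of Ccr2, 295 of Ccr1 and 62.4 of Cxcl16, and 62 of these cells came from KO_MI.

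Library ratios of Cx3cr1 in macrophages were all within 1.5-fold. KO_MI over Het_MI was -0.25 [-0.29, -0.22], KO_sham over Het_sham -0.21 [-0.24, -0.17], and Het_MI over Het_sham -0.09 [-0.13, -0.05], so each KO library was somewhat under its Het counterpart. All macrophage genes had a median of -0.12 in KO_MI over Het_MI. Without the MHC class II sub-clusters the KO_MI over Het_MI ratio of Cx3cr1 was -0.21, and without D5 and cluster 34 it was -0.18. In classical monocytes KO_sham was the highest library and KO_MI the lowest, which gave 0.44 [0.19, 0.70] for KO_sham over Het_sham and -0.54 [-0.79, -0.29] for KO_MI over KO_sham. In cells with Xist and no Y-linked UMI the latter was 0.16.

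**Figure D2:**
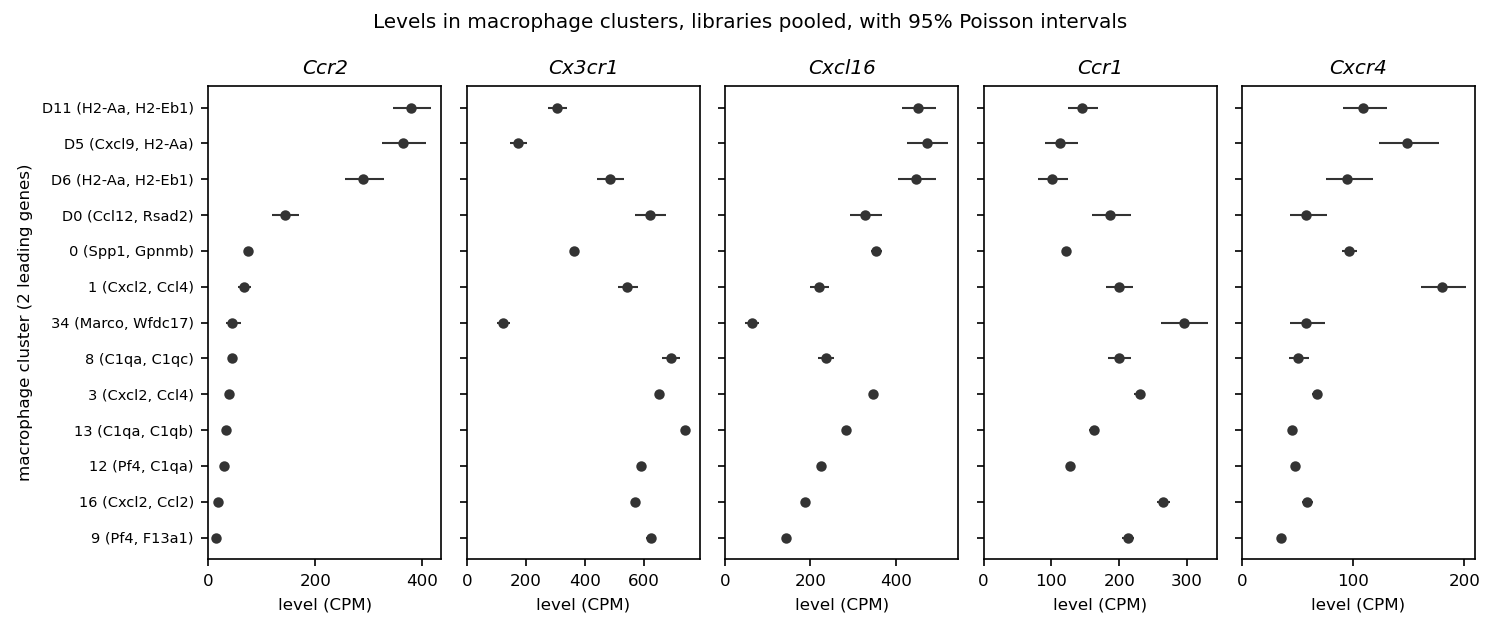
Level (CPM, libraries pooled, bars are exact 95% Poisson intervals) of Ccr2, Cx3cr1, Cxcl16, Ccr1 and Cxcr4 in the macrophage clusters, in order of Ccr2 and labelled by 2 leading genes. Ccr2 runs from 14.9 CPM in the Lyve1 cluster 9 to 379 in D11, and Cx3cr1 from 741 in cluster 13 to 123 in the Marco cluster 34.

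Cxcr4, the receptor for CXCL12, was the most widely read of the 8 genes. Neutrophils had 525, 510, 471 and 333 CPM and non-classical monocytes 489, 476, 537 and 318, ranges that overlapped almost wholly. B cells with Rag1, a stage of B cell development, followed with 317, 383, 321 and 179 CPM, basophils with 192, 342, 352 and 194, and classical monocytes with 283, 274, 252 and 180. The other B cells had 158, 133, 131 and 95.6 CPM, NK cells 72.5, 145, 144 and 49.3, T cells 49.4, 60.0, 38.4 and 20.7, and macrophages 39.8, 53.6, 80.8 and 65.4. In 7 of these 9 types KO_MI was the lowest library. The exceptions were basophils, where Het_sham was the lowest, and macrophages, where both sham libraries were lower. KO_MI was also the lowest in type 1 dendritic cells (101, 99.9, 108 and 90.5 CPM) and T cells with Rag1 (37.5, 56.8, 36.5 and 34.6). It was not in immature neutrophils (111, 77.3, 70.8 and 80.1), endothelial cells (38.2, 2.02, 31.6 and 13.8) or fibroblasts (3.91, 5.61, 8.08 and 10.6). Of types with under 20 cells in a library, type 2, migratory and plasmacytoid dendritic cells and type 2 innate lymphoid cells had more in KO_MI than in Het_MI.

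Between the MI libraries, Cxcr4 was lower in KO_MI in all 7 cell types with enough cells. The log2 ratio of KO_MI over Het_MI was -0.30 [-0.40, -0.21] in macrophages, -0.48 [-0.68, -0.29] in classical monocytes, -0.76 [-0.93, -0.58] in non-classical monocytes and -0.50 [-0.82, -0.18] in neutrophils. It was -0.46 [-0.67, -0.25] in B cells, -1.55 [-2.09, -1.03] in NK cells and -0.89 [-2.03, 0.16] in T cells, whose interval includes 0 with 12 and 24 UMIs. Among these T cells, gamma-delta cells of the interleukin-17 type (described below) went the other way, with 29.4 CPM in Het_MI and 75.4 in KO_MI. Those values came from 5 and 6 UMIs. As background, 19.7% of the 2103 genes with enough UMIs in all 7 types were lower in all 7. The median of Cxcr4 over the types was -0.50, against -0.11 over those genes, rank 61 from the lowest of 2103.

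The sign in all 7 types held under each other doublet rule, gate, clustering and scaling tried; the ratios nearest 0 were -0.08 in neutrophils at Leiden resolution 0.5 and -0.17 in macrophages with TMM library factors. With at most 5% mitochondrial UMIs and at least 1000 UMIs per cell it held in 6 of 7 types, and B cells gave 0.24 from the 79 to 120 B cells left per library. Among cells with Xist and no Y-linked UMI only macrophages and B cells were numerous enough, at -0.03 and -0.34. A list of 16 immediate-early and stress genes, among them Fos, Jun and Hspa1a, was added after seeing the data because tissue digestion is known to induce them. Its summed level was also lower in KO_MI than in Het_MI in 7 of 7 types, as were 19.7% of the 2103 single genes above. All-gene medians in this comparison were -0.07 to -0.12. The summed level of the list was 11636 CPM in Het_MI and 9800 in KO_MI in macrophages, 6288 and 4947 in classical monocytes, 7261 and 6188 in non-classical monocytes, and 12510 and 11498 in neutrophils. It was 3142 and 2783 in B cells, 4053 and 3303 in T cells and 4277 and 4087 in NK cells. The levels lay closest in NK cells, the type with the lowest Cxcr4 ratio (-1.55). The part of the list in the Cxcr4 ratios was not tested.

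In KO the MI library was also under its own sham control in 5 of 6 types. KO_MI over KO_sham was -0.60 [-0.78, -0.42] in classical monocytes, -0.58 [-0.73, -0.44] in non-classical monocytes, -0.62 [-0.92, -0.32] in neutrophils, -0.47 [-0.67, -0.27] in B cells and -1.53 [-2.60, -0.58] in T cells. The same ratios in Het were -0.17, 0.14, -0.16, -0.26 and -0.36, of which only that of B cells had an interval without 0 ([-0.42, -0.11]). The KO call in classical monocytes was kept in only 5 of 11 alternatives (-0.84 to -0.52) and that in neutrophils in 5 of 10 (-0.78 to -0.16). Both were lost with TMM or median-of-ratios factors and at Leiden resolution 0.5, among others. In non-classical monocytes with Xist and no Y-linked UMI the KO ratio was -0.09. NK cells of cluster L6, led by Gzma and Ccl5, had 114, 185, 173 and 47.4 CPM, and the dividing NK cells of cluster L3 had 47.4, 45.0, 74.9 and 51.8.

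Macrophages were the exception, with more Cxcr4 after MI. Het_MI over Het_sham was 1.02 [0.88, 1.17], a call kept in 11 of 11 alternatives, and KO_MI over KO_sham was 0.29 [0.18, 0.39]. The difference between the ratios was -0.74, with a counting interval of -0.91 to -0.56. In cells with Xist and no Y-linked UMI the ratios lay nearer each other, at 0.83 in Het and 0.58 in KO. Between the MI libraries these cells gave -0.03. Leaving out the MHC class II sub-clusters left the Het ratio at 1.01, and leaving out D5 and cluster 34 left it at 1.03. By cluster, Het_MI over Het_sham ran from 1.31 [0.92, 1.71] in cluster 13, 0.94 in cluster 8, 0.90 [0.59, 1.22] in cluster 12, 0.70 [0.28, 1.13] in cluster 9 and 0.66 [0.13, 1.23] in cluster 0 down to 0.43 [-0.05, 0.93] in cluster 16 and 0.23 [-0.10, 0.59] in cluster 3. Cxcr4 in cluster 13 was 28.2 CPM in Het_sham, 41.0 in KO_sham, 70.2 in Het_MI and 43.1 in KO_MI, a ratio of -0.70 [-1.04, -0.37] between the MI libraries. That ratio was -0.80 [-1.31, -0.32] in the Lyve1 cluster 9, -0.55 in the dividing cluster 12, -0.45 in cluster 3 and -0.38 in the Spp1 cluster 0, and -0.04 in cluster 8 and 0.19 in cluster 1, both with under 50 cells in each MI library. The summed digestion list in macrophages was 7415, 10796, 11636 and 9800 CPM, lowest in Het_sham as Cxcr4 was, and its part was not tested.

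**Figure D3:**
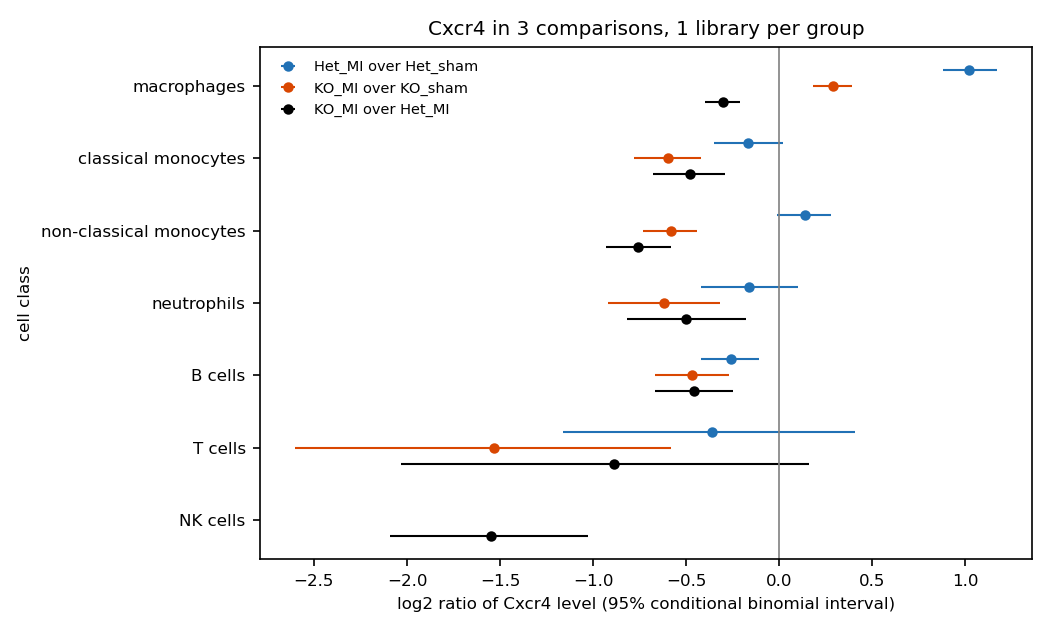
Log2 ratios of the Cxcr4 level (horizontal axis) by cell type for 3 comparisons of libraries, with 95% counting intervals; NK cells were numerous enough only in the MI libraries. All 7 ratios of KO_MI over Het_MI are below 0, from -0.30 in macrophages to -1.55 in NK cells, and the macrophage ratio of Het_MI over Het_sham is 1.02.

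Among the lymphoid receptors, Cxcr5, which brings B cells towards CXCL13 in follicles, was nearly a B cell gene. B cells had 83.8, 83.7, 89.8 and 76.3 CPM, and B cells with Rag1 had 16.7, 19.8, 21.8 and 17. The ratios in B cells ran from -0.24 [-0.47, 0.00] for KO_MI over Het_MI to 0.10 for Het_MI over Het_sham. B cell cluster 4 had 92.2 CPM of Cxcr5, cluster 24 (133 cells) had 81.4, cluster 5 had 68.5 and the Rag1 cluster 6 had 19.5. Cxcr4 over the same clusters was 117, 90.3, 183 and 307 CPM.

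Ccr6, the receptor for CCL20, was sparse. B cells had 11.5, 6.48, 10.3 and 8.72 CPM, from 164 UMIs in 3222 cells, most of them in cluster 4 (12.9 CPM). KO_sham was the lowest library, at -0.83 [-1.48, -0.20] over Het_sham, and in cells with Xist and no Y-linked UMI that ratio was 0.10. KO_MI over Het_MI was -0.24 [-0.99, 0.48]. In T cells there were 13 UMIs, all of them in gamma-delta T cells of the interleukin-17 type (gamma-delta T17 cells, marked by Trdc and Cd163l1). These were 5, 4, 4 and 0 UMIs in 8, 16, 35 and 20 such cells, and 0 in 20 cells allows a share of up to 15.0% of cells with a UMI.

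Cxcr6, a receptor of tissue-resident lymphocytes, was read almost wholly in lymphoid cells, with 23 UMIs in 7759 macrophages and 1 in 1146 classical monocytes. Type 2 innate lymphoid cells had 104, 184, 191 and 277 CPM in 10, 24, 28 and 41 cells. T cells had 43.0, 30.7, 128 and 124 CPM, both MI libraries high and both sham libraries low. Het_MI over Het_sham was 1.57 [0.98, 2.20] and KO_MI over KO_sham 2.02 [1.30, 2.79], each kept in 10 of 10 alternatives, while KO_MI over Het_MI was -0.04 [-0.52, 0.43]. NK cells had 42.8, 20.2, 18.8 and 33.9 CPM, with 0.85 [-0.14, 1.94] for KO_MI over Het_MI.

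Split by subset, the similar T cell levels of the MI libraries had different makeups. Gamma-delta T17 cells had 185, 113, 412 and 389 CPM of Cxcr6 and made up 5.93%, 12.3%, 30.7% and 17.4% of T cells. T cells with Rag1, unevenly spread over the libraries, are not in these shares or levels, and had 3 Cxcr6 UMIs in 699 cells. The other T cells had 25.6, 17, 22.0 and 82.0 CPM, from 18, 10, 10 and 41 UMIs, so that KO_MI stood alone. Without the gamma-delta T17 cells, an alternative added after seeing the data, Het_MI over Het_sham was -0.22 [-1.50, 0.97], KO_MI over KO_sham 2.27 [1.24, 3.43] and KO_MI over Het_MI 1.90 [0.88, 3.06]. The cluster of T cells led by Ccl5 and Gzma, genes of cytotoxic cells, had 77.5, 54.4, 65.1 and 130 CPM in 23, 35, 20 and 58 cells. The cluster with Lef1 and Tcf7, genes of naive T cells, had 12.5, 0, 6.02 and 5.19 CPM in 104, 79, 59 and 37 cells, and 0 in 79 cells allows a share of up to 3.80% of cells with a UMI.

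Ccr2 in T cells followed a like division. It was 38.0, 49.7, 78.4 and 107 CPM over all T cells, with 1.05 [0.36, 1.75] for Het_MI over Het_sham and 1.11 [0.48, 1.75] for KO_MI over KO_sham. The call for Ccr2 in T cells in Het was lost in 2 of 10 alternatives, with only Scrublet-type calls removed (0.31) and at Leiden resolution 0.5 (0.54), and that in KO with per-cell marker gates (0.37). In gamma-delta T17 cells it was 173, 134, 218 and 302 CPM and in the other T cells 21.3, 35.8, 26.4 and 76.0. Among these other T cells KO_MI over Het_MI was 1.53 [0.56, 2.60], from 38 and 12 UMIs. The Het call was in neither part, a split that is not among the 10 alternatives. Het_MI over Het_sham for Ccr2 was 0.33 in gamma-delta T17 cells and 0.31 in the other T cells, both with intervals that include 0. KO_MI over KO_sham was 1.17 and 1.09 in the same order, with intervals that leave out 0. The gamma-delta T17 values come from as few as 8 cells in a library.

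**Figure D4:**
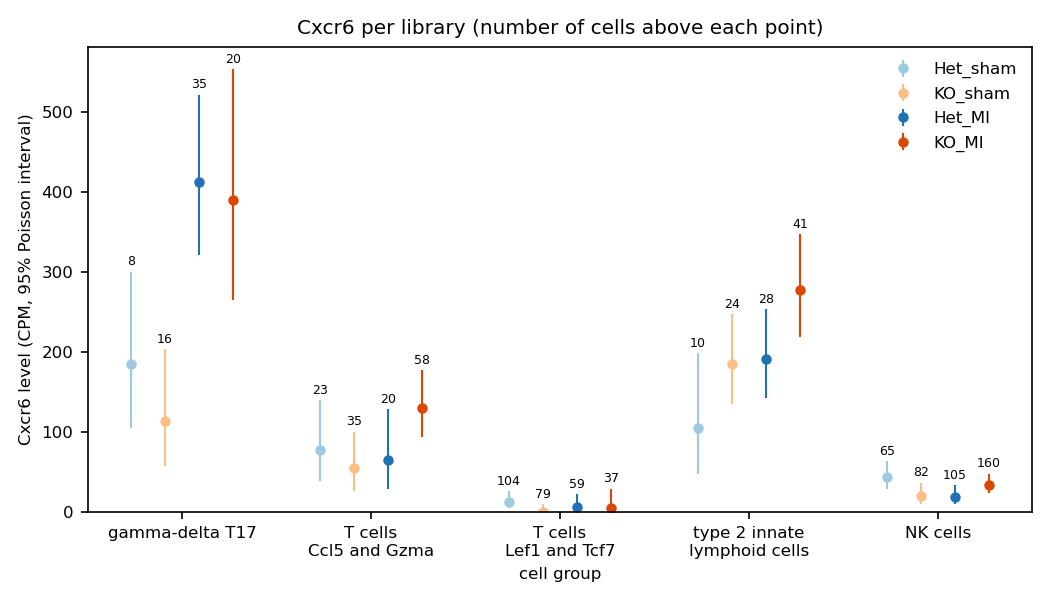
Cxcr6 level (CPM, bars are exact 95% Poisson intervals) per library in gamma-delta T17 cells, the T cell clusters with Ccl5 and Gzma and with Lef1 and Tcf7, type 2 innate lymphoid cells and NK cells, with the number of cells above each point. Gamma-delta T17 cells are high in both MI libraries (412 and 389 CPM), and the cluster with Ccl5 and Gzma is highest in KO_MI (130).

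Cxcl16, the ligand of Cxcr6, was read in antigen-presenting cells. Migratory dendritic cells, marked by Ccr7 and Fscn1, had 954, 704, 777 and 736 CPM in 67 cells in all. Macrophages had 227, 219, 275 and 312 CPM and type 1 dendritic cells 223, 215, 123 and 209, overlapping ranges, and type 2 dendritic cells had 175, 134, 162 and 191. Fibroblasts (mean 49.7 CPM) and endothelial cells (mean 33.5) were lower. In macrophages both MI libraries were above both sham libraries, with 0.27 [0.21, 0.34] for Het_MI over Het_sham, 0.51 [0.46, 0.56] for KO_MI over KO_sham and 0.18 [0.13, 0.23] for KO_MI over Het_MI, none past 1.5-fold. Without the MHC class II sub-clusters the KO ratio was 0.45 [0.39, 0.50], and without D5 and cluster 34 it was 0.54 [0.49, 0.59]. By cluster, Cxcl16 was 473 CPM in D5, 453 in D11, 448 in D6, 355 in the Spp1 cluster 0 and 285 in D12, against 142 in the Lyve1 cluster 9 and 62.4 in cluster 34.

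Monocytes had small amounts of Cxcl16 with large ratios. Classical monocytes had 7.2, 33.2, 47.0 and 39.5 CPM, Het_sham alone being low with 15 UMIs. This gave 2.71 [1.90, 3.61] for Het_MI over Het_sham and 2.21 [1.39, 3.11] for KO_sham over Het_sham; with doublets kept the values were 0.43 and -0.92. Non-classical monocytes had 8.20, 14.2, 13.5 and 33.5 CPM, KO_MI being the highest, with 1.31 [0.43, 2.31] over Het_MI. There Cxcl16 in non-classical monocytes was 0.72 [-0.37, 1.74] for Het_MI over Het_sham, from 13 and 25 UMIs. This was no longer a call without the cell with the most UMIs in each library (0.46) or with the stricter cell filter (0.00). The summed level of 11 macrophage markers moved alongside: it was 3339, 6218, 6895 and 5463 CPM in classical monocytes and 3354, 4041, 3857 and 5138 in non-classical ones, against 26919 to 33797 in macrophages. Its part in these ratios was not tested. With per-cell marker gates the ratios in non-classical monocytes were -0.01 for KO_MI over Het_MI and -0.28 for KO_MI over KO_sham.

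Neutrophils likewise carried a little Cx3cr1, at 49.2, 21.1, 19.7 and 45.9 CPM from 27, 12, 9 and 19 UMIs. The macrophage markers there summed to 2059, 1415, 1084 and 2086 CPM, high in the same libraries, Het_sham and KO_MI. Without the cell with the most UMIs of the gene in each library, the ratios of -1.32 for Het_MI over Het_sham, 1.12 for KO_MI over KO_sham and -1.22 for KO_sham over Het_sham became -0.10, 0.26 and -0.22.

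**Figure D5:**
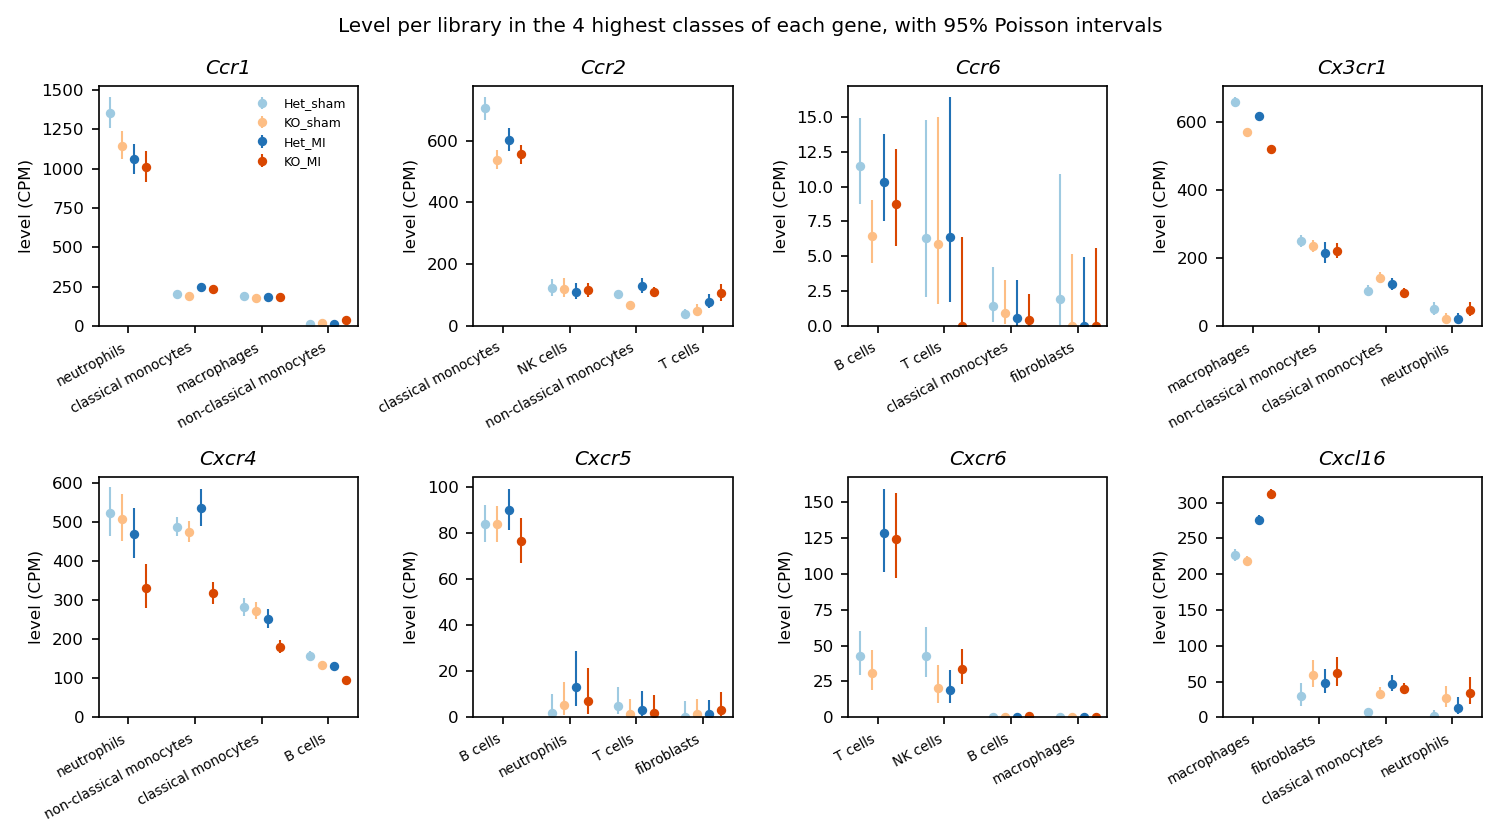
Level of each gene per library (CPM, points, with exact 95% Poisson intervals) in its 4 highest cell types among those with at least 50 cells in every library. Cxcr4 is lowest in KO_MI in B cells (95.6 CPM) and non-classical monocytes (318), and Cxcr6 in T cells is high in both MI libraries (128 and 124).

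Counted over genes and cell types, few pairs passed 1.5-fold. Between the MI libraries 25 of 56 pairs were counted (27 had under 30 UMIs and 4 were in a type with under 5% of the gene's highest level). Of these, 2 were higher in KO_MI, Cxcl16 in non-classical monocytes and Cxcr6 in NK cells, where 4.73% of all gene-and-type pairs were higher. The 3 lower pairs were Cxcr4 in non-classical monocytes, NK cells and T cells, where 9.39% of all pairs were lower. All 4 pairs left out by the 5% rule, which was chosen after seeing the data, were past 1.5-fold. They were Ccr1 in non-classical monocytes (1.37 [0.52, 2.32]) and Cxcr5 in macrophages (-1.19 [-2.43, -0.05]), and Cx3cr1 (0.69) and Cxcl16 (0.77) in B cells. The intervals of those in B cells include 0. For Het_MI over Het_sham, 6 of 23 pairs were higher (6.42% of all pairs) and 1 was lower (6.93%). The 6 were Cxcr4 and Ccr2 in macrophages, Cxcl16 in both kinds of monocytes, and Ccr2 and Cxcr6 in T cells, and the lower one was Cx3cr1 in neutrophils. Here the 5% rule left out Ccr1 (1.05) and Cx3cr1 (0.94) in B cells, past 1.5-fold with intervals that include 0.

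For KO_MI over KO_sham, 6 of 23 pairs were higher (4.86% of all pairs) and 3 lower (8.41%). The higher ones were Ccr2 in macrophages, non-classical monocytes and T cells, Cxcr6 in T cells, Cxcl16 in non-classical monocytes and Cx3cr1 in neutrophils. The lower ones were Cxcr4 in classical monocytes, neutrophils and T cells. The 5% rule left out Cx3cr1 (2.06) and Cxcl16 (0.64) in B cells, Ccr1 in non-classical monocytes (1.01) and Cxcr5 in macrophages (-1.50). For KO_sham over Het_sham, 2 of 23 pairs were higher (3.77% of all pairs), Cxcl16 in both kinds of monocytes. The 3 lower ones (5.09% of all pairs) were Ccr2 in non-classical monocytes, Ccr6 in B cells and Cx3cr1 in neutrophils. The pairs called after MI in both genotypes were Ccr2 in macrophages and T cells, Cxcr6 in T cells and Cxcl16 in non-classical monocytes. These comparisons share no library, but each rests on 1 library per group. The share of all gene-and-type pairs called in both was not computed, so whether this overlap is large cannot be told. Without the gamma-delta T17 cells the Het ratios in T cells were no calls, at 0.31 for Ccr2 and -0.22 for Cxcr6. Cxcl16 fell to 0.00 in Het with the stricter cell filter and to -0.28 in KO with marker gates. Ccr2 in macrophages in Het was kept in 9 of 11 alternatives. Each library enters 2 of the 4 comparisons, so calls in comparisons that share a library are not independent.

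Other genes of the same pathways were read in macrophages. Of 16 other chemokine receptors, 8 had enough UMIs in KO_MI over Het_MI, 3 of them higher and 0 lower (3.62% and 4.26% of all macrophage genes), with a median of 0.39 against -0.12 over all genes. The higher ones were sparse: Ackr3 (55 and 8 UMIs), Ccr3 (0.98) and Xcr1 (0.60). Ccrl2 was within 1.5-fold, at 280 CPM in KO_MI and 320 in Het_MI. Of 13 ligands of the receptors studied, 11 were counted and 3 were higher: Ccl8 (44.9 and 10.9 CPM, 2.04), Ccl5 (109 and 47.6, 1.19) and Ccl6 (379 and 173, 1.13). None was lower by 1.5-fold, but the most abundant, Ccl4 (-0.44), Ccl2 (-0.43) and Ccl3 (-0.41), were below 0, and the median of the ligands was -0.01. Single cells held up to 22.0% of the Ccl5 UMIs of a library. In the list of signalling, shedding and partner genes 1 of 14 was higher, Cd74 (1.35), which chaperones MHC class II molecules, while Adam10 (-0.03) and Adam17 (-0.15), the proteases that shed CXCL16 and fractalkine, were within 1.5-fold. Of 11 other trafficking receptors 1 was higher, the integrin Itgb7 (0.86).

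After MI, Ccl8 and Ccl5 were higher in macrophages of both genotypes. In Het_MI over Het_sham 4 of 9 counted ligands were higher and 0 lower (7.31% and 6.73% of all macrophage genes): Ccl8 (2.54), Ccl5 (1.37), Ccl4 (1.22) and Ccl3 (0.87), with a median of 0.57. In KO_MI over KO_sham 3 of 11 were higher (6.68% of all genes), Ccl8 (4.92), Ccl5 (1.70) and Ccl6 (1.65), and 1 lower (5.96%), Ccl2 (-0.86), with a median of 0.08. The ligand of Cxcr4, Cxcl12, had only 16 to 20 UMIs in macrophages of KO_sham, Het_MI and KO_MI. Among the other chemokine receptors, Ccrl2 stood at 320 CPM in Het_MI and 97.9 in Het_sham (1.71), and at 280 in KO_MI and 202 in KO_sham (0.47).

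The genes whose levels ran most like each of the 8 were ranked by Pearson's r over 42 points, each a cell type in a library, among 6541 genes. These points share libraries and cell types, so r is a description. Ccr1 ran most like Cd33 (0.957), Sde2 (0.933) and Rab7 (0.927), and Ccr2 like Tspo (0.875), Gyg (0.850) and S100a4 (0.833). Cx3cr1 ran like Abhd12 (0.952), Ctsb (0.947) and Hpgd (0.945). For Cxcr4 the first was Grk2 (0.926), a kinase that phosphorylates activated receptors of this class, then Ptk2b (0.903) and N4bp2l1 (0.901). Cxcr5 ran like Fcmr (0.964), Fcer2a (0.945) and Ms4a1 (0.939), all known in B cells, and Ccr6 like Sfn (0.815), Fcer2a (0.807) and Ccr7 (0.759). Cxcr6 ran like Icos (0.947), a co-stimulatory receptor of T cells and innate lymphoid cells, Kbtbd11 (0.924) and Klra7 (0.917). Cxcl16 ran like Rnf150 (0.928), Gatm (0.923) and Tnfsf9 (0.911).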

How the data were processed

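The authors deposited 1 matrix of UMI counts per library, made with Cell Ranger 6.1.1 per the submitters' processing notes (the matrix headers give software version 4.0.0), on GRCm38. Cells with at least 500 UMIs, at least 200 genes and at most 10% mitochondrial UMIs were kept. Scrublet-type doublet calls (254 to 505 per library) and cells with UMIs of 2 lineages (15.8% to 22.9%) were removed. Cells were clustered with scanpy 1.11.5 and leidenalg 0.10.2 (resolution 1.0, 30 components) without the 8 genes, and clusters were named from marker lists. UMIs were summed per cell type and library. Factors of edgeR 4.0.16 (TMM) and DESeq2 1.42.0 (median of ratios) were alternatives only. The calling was tested on simulated data. Members and lists were chosen with earlier results of these data known. All 8 genes are named where they had 30 UMIs, with the 3 genes most like each (50 cells and 50 CPM at least, log2 of CPM + 20), and of each pathway list the most abundant and the extreme genes. The 5% rule and the digestion list were chosen after seeing the data. From 31 to 46 barcodes of a library were shared with another. Some named genes are not reported here.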

Additional observations from a re-analysis of the deposited data

Results flagged for a closer look

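In 4 of the pairs of gene and cell type counted above, the ratio of MI over sham had opposite signs in the 2 genotypes and the counting interval of the difference left out 0. Each comparison of MI over sham counted 23 pairs. The share of all gene-and-type pairs that meet this rule was not computed, so whether 4 is many cannot be told. With 1 library per group these differences were not tested, and the intervals cover counting error only. Ccr2 in classical monocytes was -0.22 in Het and 0.04 in KO, a difference of 0.27 (0.11 to 0.43). The KO libraries hardly differed there, with 539 CPM in KO_sham and 556 in KO_MI. Cx3cr1 in classical monocytes was 0.24 in Het and -0.54 in KO, a difference of -0.77 (-1.14 to -0.41), and the KO ratio was 0.16 in cells with Xist and no Y-linked UMI. Cxcr4 in non-classical monocytes was 0.14 in Het and -0.58 in KO, a difference of -0.72 (-0.92 to -0.52), and the KO ratio in cells with Xist and no Y-linked UMI was -0.09. Cx3cr1 in neutrophils was -1.32 in Het and 1.12 in KO, a difference of 2.44 (0.93 to 3.95), from 9 to 27 UMIs a library. Without the cell with the most UMIs in each library the Het ratio was -0.10, and neither ratio was a call. The Het call was kept in 4 of 10 alternatives and the KO call in 7 of 10.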

How the results depend on the processing

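Of 1040 ratios recomputed under alternatives, 852 stayed within the counting interval of the reported ratio, 178 moved out of it and 10 called ratios reversed; of 64 levels 9 moved and of 96 counts of pairs 22 moved. No paired analysis was possible because each group had 1 library, and for the same reason no replicate could be left out. All-gene medians in KO_MI over Het_MI were -0.07 to -0.12, and ratios are best read against that shift. Reversed ratios for Cxcl16 were -0.01 (KO_MI over Het_MI) and -0.28 (KO_MI over KO_sham) in non-classical monocytes and -0.15 (KO_sham over Het_sham) in classical ones with per-cell marker gates, and -0.92 in the latter with doublets kept. Cx3cr1 in neutrophils, Het_MI over Het_sham, was 0.01 with doublets kept, 1.15 with only Scrublet-type calls removed and 0.54 at Leiden resolution 0.5, where KO_sham over Het_sham was 0.28. Ccr6 in B cells, KO_sham over Het_sham, was 0.10 in cells with Xist RNA but without Y-linked UMIs (cells with Xist from here on). Cxcr6 in T cells, Het_MI over Het_sham, was -0.22 without the gamma-delta T17 cells. The cause was not tested.

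Counts of higher pairs in KO_MI over Het_MI (2) became 0 with marker gates, 1 at resolution 0.5, 1 in cells with Xist and 4 with 10 UMIs as the minimum. Lower pairs there (3) became 6 with gates, 5 with at most 5% mitochondrial UMIs and at least 1000 UMIs, and 0 in cells with Xist. In Het_MI over Het_sham lower pairs (1) became 0 with only Scrublet-type calls removed, with gates, with the mean of CPM per cell, without the cell with the most UMIs and in cells with Xist, and 2 at resolution 0.5; higher pairs (6) became 2 in cells with Xist. In KO_MI over KO_sham lower pairs (3) became 1 at resolution 0.5, 1 with TMM, 1 with median-of-ratios factors and 0 in cells with Xist. In KO_sham over Het_sham lower pairs (3) became 1 with gates, 1 with the stricter cell filter and 1 in cells with Xist, where higher pairs (2) became 1. Fewer cell types had enough cells in that subset.

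Mean levels that moved were Ccr1 in neutrophils (1142 CPM), at 454 with doublets kept, 629 with gates and 663 at resolution 0.5; Ccr2 in classical monocytes (601), at 483 with gates; Cxcr6 in T cells (81.5), at 29.5 with gates; Cxcr4 in B cells (129), at 166 as a mean per cell. With the stricter cell filter B cells had 103 CPM of Cxcr4, 5.42 of Ccr6 and 65.0 of Cxcr5.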
